A study of Rattus norvegicus with 4 samples.

Results

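The genes encoding E2 conjugating enzymes of ubiquitin and of ubiquitin-like proteins were taken from RNA sequencing of rat heart muscle cells treated with carfilzomib. Members were all rows of the expression table whose gene symbol begins with Ube2 followed by a letter, which gave 35 of 18699 genes. Of these, 34 had a mean count of at least 10 over the 4 libraries, and Ube2u, with 1 count in vehicle replicate 1 and 0 counts in the other 3 libraries, was set apart. The cells were ventricular myocytes of Sprague Dawley rats, 1 to 3 days old and labelled wild type, cultured in serum with 0.1 mM 5-bromo-2-deoxyuridine against the growth of other cell types. There were 2 libraries of cells given vehicle and 2 of cells given 1 µM carfilzomib, a proteasome inhibitor, all taken at 24 h. The labels do not say whether libraries came from separate animals or cultures, so p-values measure the spread between libraries, which may be technical.

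Ubiquitin reaches its targets through a relay. An E1 enzyme activates the modifier, an E2 enzyme carries it as a thioester on a catalytic cysteine, and an E3 ligase brings the loaded E2 to the substrate. The E2 often sets whether a chain is started or extended and which lysine of ubiquitin links it, and so whether the target goes to the proteasome or to another fate. Some E2 enzymes carry another modifier, such as NEDD8 or ISG15, in place of ubiquitin, and the Ube2v proteins are variants without the catalytic cysteine. In heart muscle the ubiquitin system turns over contractile proteins and removes misfolded ones.

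The libraries held 18655499 to 18884362 estimated counts each. All 10 cardiomyocyte markers were detected in every library. Their summed level was 29463 and 29314 CPM (counts scaled to the TMM-normalised library size) with vehicle. With carfilzomib it was 6297 and 6077 CPM, with 10 of 10 lower. The falls were uneven, with a log2 of carfilzomib over vehicle from -0.36 for Tnnt2 to -3.79 for Myh6. The largest parts of the sum with vehicle were Myh6 and Actc1, at means of 9820 and 8473 CPM. Markers of fibroblasts summed to 27685 and 28241 CPM under vehicle and to 15511 and 14787 CPM with carfilzomib, with 8 of 8 lower. Col1a1 alone had means of 19670 CPM under vehicle and 10873 CPM with carfilzomib. Markers of smooth muscle (4 of 4 lower), endothelium (2 of 6 lower, 1 higher) and macrophages (5 of 6 tested lower, 1 higher) were also present, and no marker of any list was at 0 in all libraries. In such bulk samples fewer cells of a type and less RNA per cell cannot be told apart.

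With carfilzomib the RNA of 17 of the 34 tested E2 genes rose and that of 8 fell, while 9 did not pass. Ube2o, a large enzyme that acts as E2 and E3 at once, rose 2.42-fold, and Ube2l3 and Ube2h rose 1.51-fold and 1.43-fold. Ube2c, the E2 that starts ubiquitin chains for the anaphase-promoting complex, fell by 1.26 on the log2 scale, and Ube2ql1 and Ube2t fell by 1.02 and 0.92. A gene was called where edgeR's quasi-likelihood test gave a Benjamini-Hochberg adjusted p under 0.05 over all genes. The called share of E2 genes was 73.5%, beside 60.7% of all 14519 genes tested. Rises made up 50% of the E2 genes beside 30.6% of all genes, and falls 23.5% beside 30.1%. The counts for the marker lists above, and for smaller groups and lists below, are to be read beside these same shares of all genes. The median log2 change (log2 of carfilzomib over vehicle) was 0.16 over the E2 genes and 0.00 over all genes tested.

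**Figure D1:**
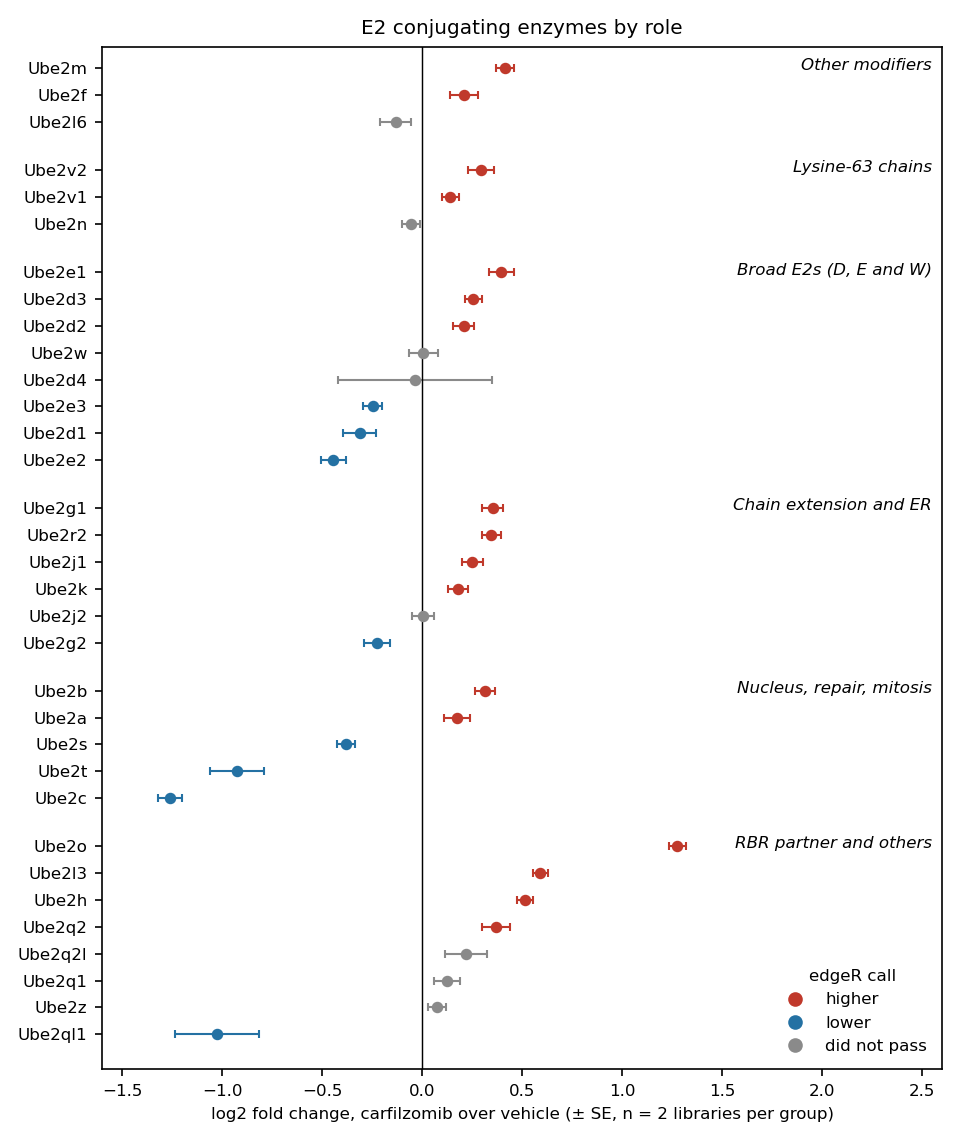
The log2 change (carfilzomib over vehicle, horizontal axis) of 33 E2 genes, grouped by role, with bars for the SE from the edgeR fit on 2 libraries per group. Red points passed as higher (17), blue points as lower (8), and grey points did not pass (8 shown); Ube2o at 1.28 and Ube2c at -1.26 mark the ends.

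Most changes were small. Ube2o upwards, and Ube2c and Ube2ql1 downwards, moved 2-fold or more, which is 3 of 34 genes, beside 11.1% of all genes (3.74% upwards and 7.38% downwards). Among called genes the median absolute log2 change was 0.35 for E2 genes and 0.50 for all genes. The groups did not overlap in CPM for 29 of the 34, with both carfilzomib libraries above both vehicle libraries for 18 and below them for 11, beside 79.9% without overlap among all genes. Reads had been apportioned with decimals for 11 of the 35 members, here called split reads, which leaves a value uncertain for a gene with a near-identical copy. Of those 11, 7 rose, 1 fell and 3 did not pass. Of the 23 tested members without split reads, 10 rose, 7 fell and 6 did not pass.

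Levels of different genes were compared as the authors' FPKM, which divides by a length for each gene. FPKM per count differed between the 2 vehicle libraries for Ube2e2 and hardly for Ube2d3, so the length used can vary by library. With vehicle Ube2s was at 207 ± 0.29 and Ube2d3 at 201 ± 7.04 FPKM (mean ± SD, n = 2), values that differ by less than the SD of Ube2d3. With carfilzomib Ube2d3 was at 244 ± 3.93 FPKM and Ube2s at 162 ± 2.79 FPKM, close to Ube2l3 at 164 ± 0.47 FPKM and below Ube2v1 at 175 ± 4.35 FPKM. At the lower end lay Ube2t, Ube2w, Ube2ql1 and Ube2d4, with a mean over the 4 libraries of 8.26, 7.86, 1.22 and 0.522 FPKM. All members together took 0.396% and 0.397% of the FPKM of all genes in the vehicle libraries and 0.427% and 0.425% in the carfilzomib libraries.

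**Figure D2:**
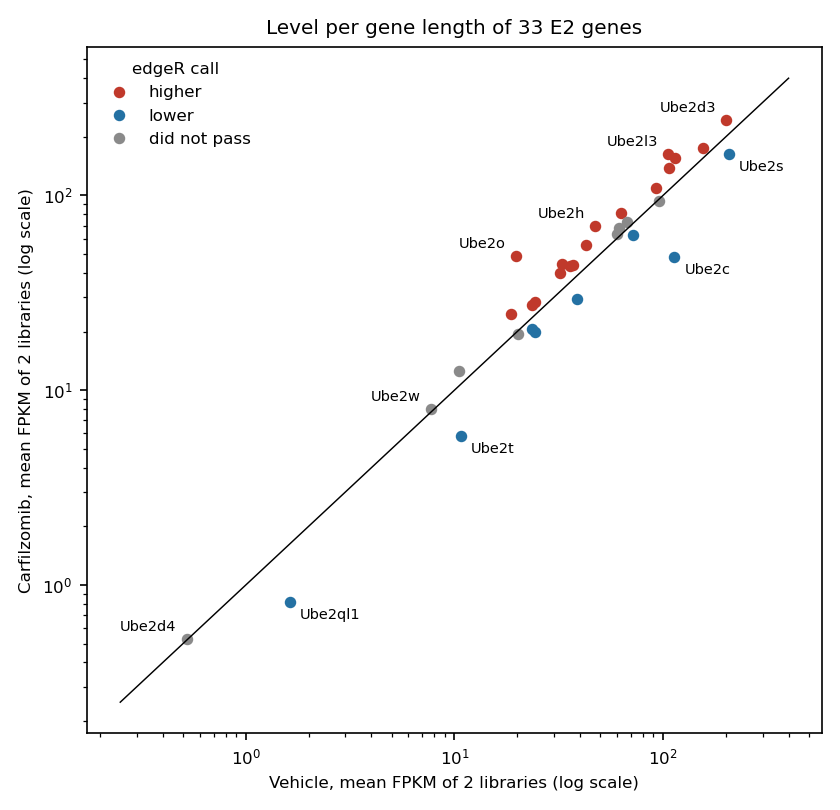
Mean FPKM of 2 carfilzomib libraries (vertical) against mean FPKM of 2 vehicle libraries (horizontal) for 33 E2 genes, both on log scales, with a line of equal level. Ube2o, from 19.7 to 48.9 FPKM, stands above the line, and Ube2c, from 113 to 48.2 FPKM, below it.

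Ube2o (gene ID 303689) takes part in the clearance of unassembled proteins and of ribosomes during the maturation of red blood cells. It had 105 and 106 CPM in the vehicle libraries and 259 and 253 CPM in the carfilzomib libraries. Both treated libraries lay at more than double the vehicle level, and replicates differed little. The log2 change was 1.28 ± 0.04 (SE) (edgeR adjusted p 2.75e-12). Per gene length Ube2o was still of middle rank among E2 genes, at 48.9 ± 0.64 FPKM with carfilzomib. Its log2 change ranged from 1.26 to 1.31 over the alternative fits.

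Ube2l3 (gene ID 363836) is the E2 of the RBR ligases such as parkin and the linear chain complex, which take ubiquitin onto a cysteine of their own. It had 274 and 279.8 CPM under vehicle and 419 and 417 CPM with carfilzomib. The groups stood far apart relative to the replicates, with a log2 change of 0.59 ± 0.04 (SE) (edgeR adjusted p 6.31e-09). Of 14 RBR ligases and subunits of the linear chain complex, 9 rose, 2 fell and 3 did not pass (median log2 change 0.26). Rnf19b, a membrane-bound ligase of this type, rose by 1.12 on the log2 scale, and Rnf144a fell by 1.26.

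Ube2h (gene ID 296956) works with the CTLH ligase, a ring-shaped complex named after a shared domain. It had 204 and 201 CPM under vehicle and 284 and 294 CPM with carfilzomib, both treated libraries higher. The log2 change was 0.51 ± 0.04 (SE) (edgeR adjusted p 5.24e-08). Of 11 CTLH genes 6 rose, 0 fell and 5 did not pass (median log2 change 0.24). The called share was 54.5%, beside 60.7% of all genes. At an unadjusted p under 0.05 the count of falls was also 0, DESeq2 called 0 falls too, and 1 gene was called lower without vehicle replicate 1. Ypel5 rose by 1.12 and Wdr26, a gene with split reads, by 0.59 on the log2 scale; both are subunits of the complex.

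**Figure D3:**
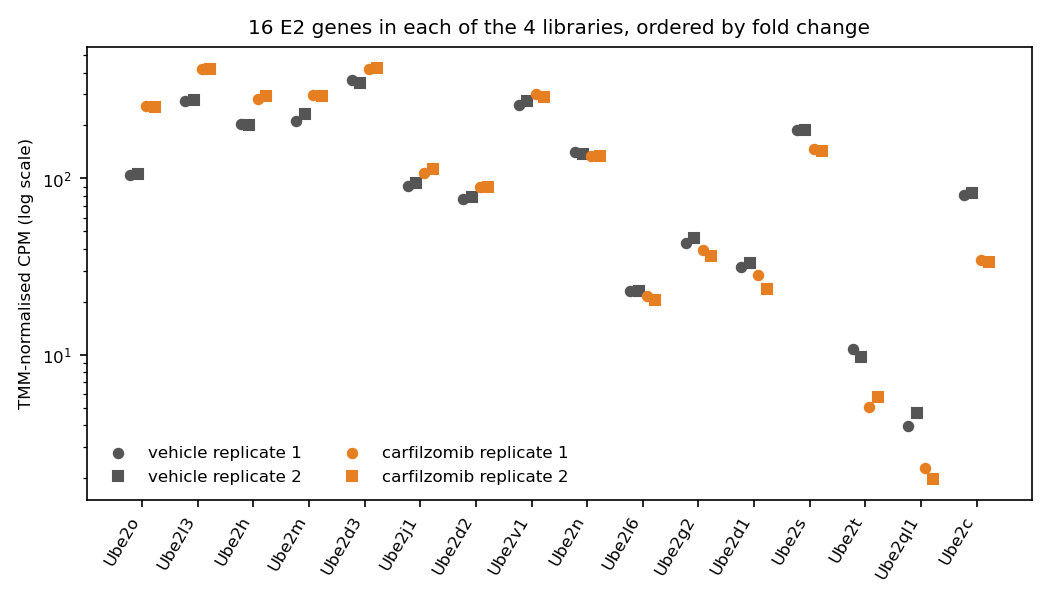
TMM-normalised CPM (vertical, log scale) of 16 E2 genes in each of the 4 libraries, ordered from the largest rise at the left to the largest fall at the right. Grey marks are vehicle and orange marks carfilzomib, circles replicate 1 and squares replicate 2; Ube2o lies at 105 and 106 CPM against 259 and 253 CPM, while the marks of Ube2n lie close together.

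The 4 E2 enzymes for other modifiers did not move alike, with 2 higher, 0 lower and 2 not passed. Ube2m (gene ID 361509, split reads), which carries NEDD8 to most cullins, had 213 and 231 CPM under vehicle and 298 and 293 CPM with carfilzomib. It rose by a log2 change of 0.41 ± 0.05 (SE) (edgeR adjusted p 1.64e-06). Ube2f, the NEDD8 carrier for Cul5, was at 41.7 and 47.5 CPM under vehicle and 51.8 and 51.3 CPM with carfilzomib, with a log2 change of 0.21 (edgeR adjusted p 0.017). That call was lost with DESeq2, at an adjusted p of 0.113. It was also lost without vehicle replicate 1, with 0.12 (edgeR adjusted p 0.151), without carfilzomib replicate 1, with 0.20 and 0.068, and without carfilzomib replicate 2, with 0.22 and 0.0514.

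Among 14 genes of cullin neddylation (cullins, their RING subunits, and the factors that load or exchange them) 13 rose, 0 fell and 1 did not pass (median log2 change 0.32). No gene of this list had a fall at an unadjusted p under 0.05 or with DESeq2. Rbx1, the RING subunit that binds Ube2m, rose by 0.75 and Cul1, the scaffold of SCF ligases, by 0.51 on the log2 scale. Upstream, both subunits of the NEDD8 E1, Nae1 and Uba3, rose by 0.72 and 0.60, and Nedd8 itself rose by 0.40; Uba3 and Nedd8 were chosen after their values were seen.

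Ube2l6 (gene ID 295704), which carries the interferon-induced modifier ISG15, was at 22.9 and 22.9 CPM under vehicle and 21.5 and 20.3 CPM with carfilzomib. Its log2 change of -0.13 ± 0.08 (SE) did not pass (edgeR adjusted p 0.158). Isg15, the modifier, rose from 1.72 and 1.57 CPM to 3.72 and 3.60 CPM, with a log2 change of 1.15 ± 0.23 (SE).

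Ube2n (gene ID 116725, split reads), known as Ubc13, builds lysine-63 chains, which mostly signal in repair and inflammation, and needs Ube2v1 or Ube2v2 to orient the incoming ubiquitin. It had 141 and 137 CPM under vehicle and 134 and 134 CPM with carfilzomib, a small shift that did not pass, with a log2 change of -0.06 ± 0.04 (SE) (edgeR adjusted p 0.283). Ube2v1 (split reads), the partner for signalling, had 261 and 274 CPM under vehicle and 300.2 and 289 CPM with carfilzomib. Its log2 change of 0.14 ± 0.04 (SE) passed (edgeR adjusted p 0.0101), but not without vehicle replicate 1, where it was 0.11 with 0.0504, or without carfilzomib replicate 1, where it was 0.12 with 0.133. Ube2v2, the partner in DNA repair, had 45.0 and 41.8 CPM under vehicle and 51.6 and 54.8 CPM with carfilzomib, a rise of 0.29 on the log2 scale.

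The ratio of Ube2v1 to Ube2n, both in FPKM, was 1.56 and 1.69 with vehicle and 1.90 and 1.83 with carfilzomib, so that the groups did not overlap; this difference was not tested. Of 8 ligases of lysine-63 chains 2 rose, 2 fell and 4 did not pass (median log2 change -0.01). That is 50% called, beside 60.7% of all genes. Traf2 fell by 0.31 and Znrf2 rose by 0.25 on the log2 scale, the latter not with DESeq2, which gave an adjusted p of 0.0849. DESeq2 called 0 rises and 1 fall in this list. Rises went to 1 without carfilzomib replicate 1 and without carfilzomib replicate 2, and falls to 1 without vehicle replicate 1 or without carfilzomib replicate 1. The replicate block gave 1 rise and 1 fall, and library size alone 1 fall.

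The Ube2d and Ube2e enzymes serve many ligases and mostly place the first ubiquitin. With Ube2w they make 8 genes, of which 3 rose, 3 fell and 2 did not pass. At 75% the called share stood beside 60.7% of all genes. Ube2d3 (gene ID 81920, split reads) had 362 and 347 CPM under vehicle and 420.3 and 427 CPM with carfilzomib. Ube2d2 (split reads) had 76.0 and 78.4 CPM under vehicle and 89.2 and 89.1 CPM with carfilzomib. Both rose, by log2 changes of 0.26 ± 0.04 and 0.21 ± 0.05 (SE), with edgeR adjusted p of 6e-05 and 0.00353. Ube2d1 went the other way, from 31.5 and 32.9 CPM to 28.3 and 23.5 CPM, with a log2 change of -0.31 ± 0.08 (SE) (edgeR adjusted p 0.0051). The call of Ube2d1 was lost with DESeq2, at an adjusted p of 0.072. It was lost too without vehicle replicate 2, at -0.28 (edgeR adjusted p 0.0573), and without carfilzomib replicate 2, at -0.18 with 0.124.

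With the counts of the 4 Ube2d genes summed into 1 row, the family rose by 0.22 ± 0.04 (SE) on the log2 scale. Ube2d3 made up 64.1% and 62.3% of the FPKM of the family with vehicle and 64.7% and 65.9% with carfilzomib, and Ube2d1 7.37% and 7.85% against 5.85% and 4.84%. The row named Ube2d4 (gene ID 79435, split reads) is called Ube2d2b in RefSeq and held 13 to 15 counts per library, with a log2 change of -0.04 that did not pass.

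Within the Ube2e family the members parted. Ube2e1 rose from 43.3 and 44.2 CPM to 55.8 and 59.3 CPM, with a log2 change of 0.40 ± 0.06 (SE). Ube2e2 fell from 41.6 and 43.5 CPM to 31.6 and 31.0 CPM, with -0.44 ± 0.06 (SE), and Ube2e3 (split reads) fell from 120.0 and 123 CPM to 102 and 102 CPM, with -0.25 ± 0.05 (SE). These calls held under each of the 11 alternative fits that keep single genes. The FPKM of Ube2e1 over that of Ube2e2 was 0.879 and 0.815 with vehicle and 1.46 and 1.58 with carfilzomib. In FPKM Ube2e1 thus lay below its paralogue in the former and above it in the latter. In CPM, without division by length, Ube2e1 lay above Ube2e2 under vehicle too, so the order there rests on the length used. The change of the ratio was not tested. With the 3 genes summed the family fell by 0.12 ± 0.04 (SE) on the log2 scale (edgeR adjusted p 0.0225).

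**Figure D4:**
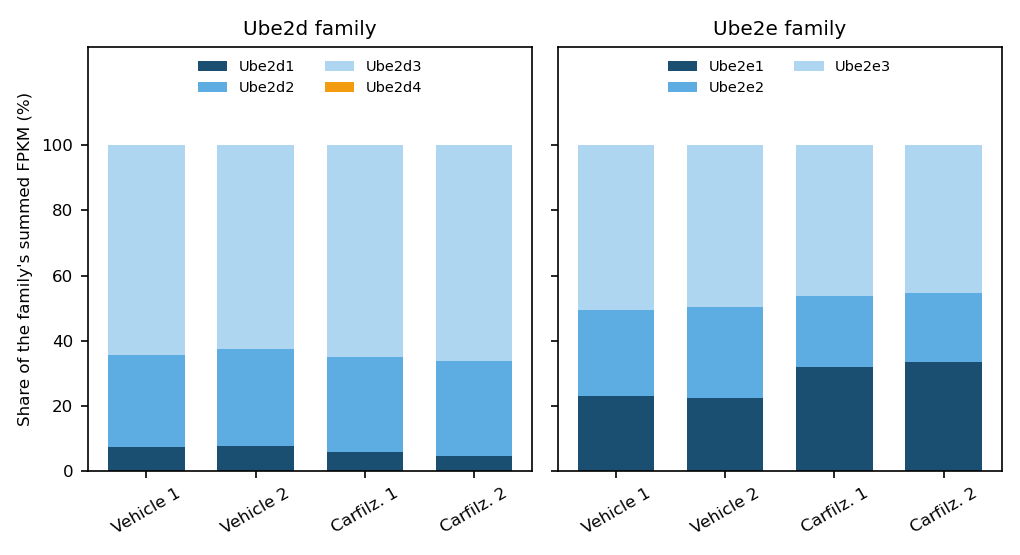
Share of each paralogue (percent of the summed FPKM of its family, stacked bars from 0) in each of the 4 libraries, for the Ube2d family at the left and the Ube2e family at the right. Ube2e1 took 23.1% and 22.6% of its family with vehicle and 31.9% and 33.5% with carfilzomib; the share of Ube2d4 is too small to see.

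Ube2w, which places ubiquitin on the amino terminus of proteins, had a log2 change of 0.01 and did not pass. Its sign turned without vehicle replicate 1 and without carfilzomib replicate 1, at -0.0020 and -0.05. Among the 6 E2 enzymes that extend chains or serve the endoplasmic reticulum 4 rose, 1 fell and 1 did not pass. Ube2r2 and Ube2g1 rose by 0.35 each and Ube2k, which extends lysine-48 chains, by 0.18 on the log2 scale. The call of Ube2k was lost without carfilzomib replicate 1, at 0.15 (edgeR adjusted p 0.0869). Ube2r2 and Ube2k have split reads. Cdc34, the sister gene of Ube2r2 under an older name, was outside the symbol rule and rose by 0.28; it was chosen after its values were seen.

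The E2 enzymes of the endoplasmic reticulum, which mark misfolded proteins pulled back out of it, differed from each other. Ube2j1 (gene ID 297961), anchored in the membrane, had 90.1 and 94.8 CPM under vehicle and 107 and 113 CPM with carfilzomib. It rose by 0.25 ± 0.05 (SE) on the log2 scale (edgeR adjusted p 7.55e-04). Ube2g2 (gene ID 294331), a soluble E2 recruited to the membrane, had 43.0 and 45.8 CPM under vehicle and 39.4 and 36.4 CPM with carfilzomib. Its log2 change of -0.23 ± 0.06 (SE) passed (edgeR adjusted p 0.00702). That call was lost with DESeq2, at an adjusted p of 0.113, without vehicle replicate 2, at -0.18 (edgeR adjusted p 0.0649), and without carfilzomib replicate 2, at -0.17 with 0.119. Ube2j2 was at 87.8 and 87.6 CPM under vehicle and 90.5 and 85.3 CPM with carfilzomib, groups that overlapped (edgeR adjusted p 0.962).

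Of 9 ligases and adaptors of the endoplasmic reticulum that work with these enzymes 7 rose, 0 fell and 2 did not pass (median log2 change 0.30). Falls were 0 as well at an unadjusted p under 0.05 and with DESeq2. Aup1, the lipid droplet protein that recruits Ube2g2, rose by 0.61, and Marchf6, a membrane ligase, by 0.59 on the log2 scale. Thus Aup1 rose in the libraries in which its E2 was lower.

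The promoters of Ube2j1 and Ube2g2 are shown because the genes moved in opposite directions while both windows match TGACNNNGC, the antioxidant response element core. Those of Ube2s and Ube2t are shown because both genes fell. Each sequence runs 5′ to 3′ on the strand of the gene over the 250 bases before the start site, from RefSeq on the build GRCr8. Capitals mark matches, on either strand, to the motifs searched.
Ube2j1, chr5:52218557-52218806, plus strand: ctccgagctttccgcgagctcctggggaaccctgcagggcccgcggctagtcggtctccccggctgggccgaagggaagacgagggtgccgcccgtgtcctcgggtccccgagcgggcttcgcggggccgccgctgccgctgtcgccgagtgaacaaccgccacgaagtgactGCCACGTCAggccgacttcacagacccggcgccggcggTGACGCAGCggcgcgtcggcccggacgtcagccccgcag
Ube2g2, chr20:11005061-11005310, minus strand: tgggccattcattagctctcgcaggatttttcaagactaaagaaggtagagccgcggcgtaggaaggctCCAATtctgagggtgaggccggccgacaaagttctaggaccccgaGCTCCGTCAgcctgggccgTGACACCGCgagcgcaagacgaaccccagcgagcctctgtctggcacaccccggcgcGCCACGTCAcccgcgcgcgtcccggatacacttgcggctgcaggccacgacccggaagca
Ube2s, chr1:78057409-78057658, plus strand: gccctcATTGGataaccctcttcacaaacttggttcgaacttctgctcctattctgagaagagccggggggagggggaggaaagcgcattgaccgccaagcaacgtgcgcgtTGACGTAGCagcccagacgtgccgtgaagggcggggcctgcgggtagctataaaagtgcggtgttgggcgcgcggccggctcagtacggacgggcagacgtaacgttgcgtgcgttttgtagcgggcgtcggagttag
Ube2t, chr13:48954916-48955165, plus strand: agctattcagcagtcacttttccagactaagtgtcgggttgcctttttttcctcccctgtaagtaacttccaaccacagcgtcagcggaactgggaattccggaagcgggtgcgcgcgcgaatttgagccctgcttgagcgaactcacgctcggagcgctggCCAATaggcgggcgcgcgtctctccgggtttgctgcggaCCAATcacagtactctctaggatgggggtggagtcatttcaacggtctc

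RefSeq windows of 300 bases (250 before and 50 after the start site) were matched to 28 of the 35 members by gene ID; Ube2c and Ube2o were among those with no entry. Letters matching the antioxidant response element core, TGACNNNGC, were found on either strand in 8 of the 28 members. That is 28.6%, beside 13.1% of the 27457 genes with a window. N stands for any base, so a match does not show which factor binds there. Of those 8 members 4 rose (Ube2d2, Ube2j1, Ube2q2 and Ube2v1), 3 fell (Ube2e3, Ube2g2 and Ube2s) and Ube2n did not pass. The window of Ube2g2, a gene that fell, held 3 matches and that of Ube2j1, a gene that rose, 2. Member windows were richer in G and C, at a median of 66.0% against 51.7% over all 33469 windows, and the part of this difference in the motif counts was not tested.

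The CCAAT box, CCAAT, was found in 9 of the 28, 32.1%, beside 39.6% of genes. Of those 9 members 3 rose, 3 fell, 2 did not pass and Ube2u was not tested. Ube2f, called higher, held 3 matches, Ube2t and Ube2u held 2 each, and Ube2s held 1. For Ube2u, 1 match lay in 2 overlapping windows and is counted once. The heat shock element GAANNTTC was found in 7.14% of members (Ube2l3 and Ube2u) beside 9.09% of genes, with the match of Ube2l3 beginning 6 bases into the transcript. The cell cycle homology region TTTGAA was found in Ube2f and Ube2m, 7.14% beside 19.4% of genes. An E2F site, TTTCGCGC or TTTGGCGC, was found in 0 of the 28 beside 0.892% of genes. Matches of different motifs did not overlap in any member window.

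All 5 E2 genes of mitosis, DNA repair and chromatin were called, 3 lower and 2 higher. Among all genes tested 60.7% were called, 30.1% lower and 30.6% higher. The E2 genes of mitosis and crosslink repair were the ones that fell. Ube2c (gene ID 296368) had 80.1 and 83.0 CPM under vehicle and 34.5 and 33.6 CPM with carfilzomib. Its treated libraries lay below 50% of the vehicle level, with a log2 change of -1.26 ± 0.06 (SE) (edgeR adjusted p 1.97e-10). Ube2s (gene ID 292588), which extends with lysine-11 links the chains that Ube2c starts, had 187 and 189 CPM under vehicle and 146 and 143 CPM with carfilzomib. It fell by less, with a log2 change of -0.38 ± 0.04 (SE) (edgeR adjusted p 1.99e-06). The FPKM of Ube2s over that of Ube2c was 1.86 and 1.80 with vehicle and 3.37 and 3.37 with carfilzomib, a change of the ratio that was not tested.

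Ube2t (gene ID 360847), the E2 that modifies FANCD2 in the Fanconi pathway, had 10.7 and 9.69 CPM under vehicle and 5.03 and 5.72 CPM with carfilzomib. The groups did not overlap, with a log2 change of -0.92 ± 0.14 (SE) (edgeR adjusted p 2.99e-05). Of 10 matched Fanconi genes 7 fell, 0 rose and 3 did not pass (median log2 change -0.65); rises were also 0 at an unadjusted p under 0.05 and with DESeq2. Fancb and Fanca, subunits of the core complex, fell by 1.23 and 0.90 on the log2 scale, Fanca with split reads. Fancl, the ligase partner of Ube2t (split reads, chosen after its values were seen), had a log2 change of -0.34 (edgeR adjusted p 0.0356). That call was lost without any 1 of the 4 libraries, with adjusted p from 0.0744 to 0.171, with DESeq2, at 0.322, with library size alone, at 0.0557, and with the replicate block, at 0.0551.

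All 10 proliferation markers were lower with carfilzomib in these libraries. They summed to 1053 and 1011 CPM under vehicle and to 535 and 536 CPM with carfilzomib (median log2 change -0.93), beside -1.26, -0.92 and -0.38 for Ube2c, Ube2t and Ube2s. Markers of cardiomyocytes, fibroblasts and smooth muscle cells had medians of -2.06, -0.82 and -1.58. For macrophages and endothelium the medians were -1.10 and -0.40. The part of dividing cells in the fall of these E2 genes was not tested. Of 16 genes of the anaphase-promoting complex 4 rose, 5 fell and 7 did not pass (median log2 change -0.02). Rises made up 25% and falls 31.25%, near the 30.6% and 30.1% of all genes. Cdc20, the activator of the complex in mitosis, fell by 0.79, while Anapc7, a structural subunit, rose by 0.69. DESeq2 called 3 falls in this list.

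Ube2a and Ube2b, near-identical enzymes that mark histone H2B and the replication clamp, also stand in the nucleus but went up. Ube2b (split reads) rose from 111 and 112 CPM to 133 and 143 CPM, with a log2 change of 0.32 ± 0.05 (SE). Ube2a was at 39.3 and 40.8 CPM under vehicle and 47.3 and 43.3 CPM with carfilzomib, with 0.18 ± 0.06 (SE) (edgeR adjusted p 0.0285). That call was lost with DESeq2, at 0.202, with the replicate block, at 0.0626, without vehicle replicate 1, at 0.15 with an adjusted p of 0.126, without vehicle replicate 2, at 0.20 with 0.0543, and without carfilzomib replicate 1, at 0.11 with 0.276. Summed into 1 row the pair rose by 0.28 ± 0.04 (SE) on the log2 scale (edgeR adjusted p 4.85e-05). Of 5 of their ligases 3 rose, 1 fell and 1 did not pass. Ubr1, an N-degron ligase, rose by 0.54, and Rad18, the ligase for the replication clamp, fell by 0.51.

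With Ube2o, Ube2l3 and Ube2h, the Ube2q genes and Ube2z make a mixed group of 8 tested genes, of which 4 rose, 1 fell and 3 did not pass. Ube2ql1 (gene ID 679949) had 3.93 and 4.66 CPM under vehicle and 2.25 and 1.96 CPM with carfilzomib, from 37 to 86 counts per library. It fell by 1.02 ± 0.21 (SE) on the log2 scale (edgeR adjusted p 6.51e-04). Its relative Ube2q2 rose from 23.7 and 23.3 CPM to 30.3 and 30.4 CPM, with a log2 change of 0.37 ± 0.07 (SE). Ube2q1 was at 101 and 117 CPM under vehicle and 121 and 117 CPM with carfilzomib, so that the groups overlapped. It did not pass, at 0.12 (edgeR adjusted p 0.109), but passed with library size alone and without vehicle replicate 2. Its log2 change was 0.23 without vehicle replicate 2 and 0.02 without vehicle replicate 1. Summed into 1 row, Ube2q1 and Ube2q2 rose by 0.17 ± 0.05 (SE) on the log2 scale (edgeR adjusted p 0.014). Ube2q2l did not pass either, at 0.22 with 0.0899. It passed without vehicle replicate 1, at 0.37 with 0.022, and was at 0.08 without vehicle replicate 2 and 0.14 without carfilzomib replicate 1.

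Ube2z, an E2 loaded by the E1 Uba6 and not by Uba1, had 189 and 194 CPM under vehicle and 205 and 199 CPM with carfilzomib. Its log2 change of 0.07 ± 0.04 (SE) did not pass (edgeR adjusted p 0.145). Of the 16 listed E1 enzymes and modifiers 9 rose, 2 fell and 5 did not pass (median log2 change 0.40). Uba6 (split reads) rose by 0.40, while Uba1, the main E1 of ubiquitin, was at 469 and 474 CPM under vehicle and 435 and 437 CPM with carfilzomib; both were chosen after their values were seen. The log2 change of Uba1 was -0.11 (edgeR adjusted p 0.0177), and the call did not hold without carfilzomib replicate 1 (0.136), without carfilzomib replicate 2 (0.124), with library size alone (0.0796) or with the replicate block (0.0556). Falls in the list were 1 in each of these cases.

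Of 8 genes of the E2 fold that carry other names 4 rose, 0 fell and 4 did not pass (median log2 change 0.20); no fall appeared at an unadjusted p under 0.05 or with DESeq2. Uevld, a variant without catalytic cysteine and with split reads, rose by 1.10 from 3.45 and 2.06 CPM to 6.13 and 5.72 CPM. Birc6, a giant E2 and E3 hybrid that restrains apoptosis, rose by 0.64, from 166 and 147 CPM to 240.0 and 249 CPM. Ufc1, the E2 of UFM1, rose by 0.54 and was chosen after its values were seen. Ube2o and Birc6, the hybrids of E2 and E3 named here, were both picked by the size of their change. Their shared direction is therefore not read as a trait of such hybrids.

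**Figure D5:**
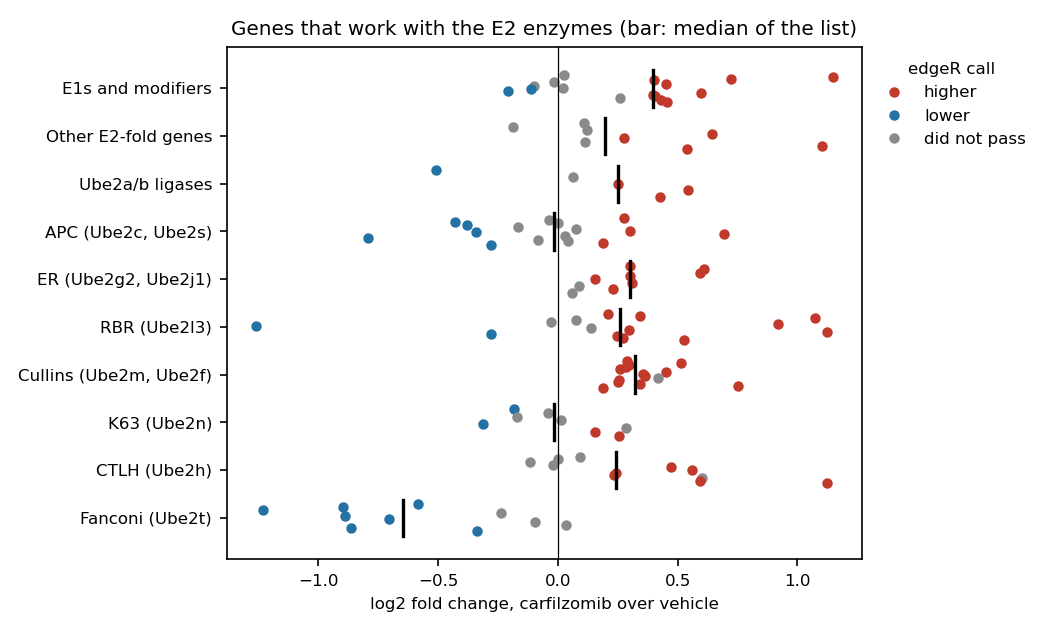
The log2 change (carfilzomib over vehicle, horizontal axis) of each tested gene of 10 lists of genes that work with E2 enzymes, 1 point per gene coloured by its edgeR call, with a black bar at the median of each list. Cullin neddylation genes lie above 0 with a median of 0.32, and Fanconi genes have the lowest median, -0.65.

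In the authors' deposited table, which lists 6063 genes with a q-value, 21 of the 35 members appear, 15 higher and 6 lower. All 21 were also called here in the same direction. Ube2a, Ube2d1, Ube2f and Ube2g2 were called here and are not listed there, the same 4 that lost their call with DESeq2. For Ube2o the authors' deposited table gives a log2 change of 1.28 and for Ube2c -1.26.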

How the data were processed

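Groups and replicate numbers came from the sample titles. Columns headed CON were read as vehicle, matched by number. The authors deposited estimated counts for each gene without normalisation, which were rounded here, and FPKM, used to compare levels between genes. They also deposited a table of log2 fold changes, p-values and q-values, from DESeq2 per the file headers. Software and build listed in the submitters' processing notes, without roles, were cutadapt 2.0, DESeq2, FastQC 0.11.8, HISAT, R 3.3.2, featureCounts 1.6.0, Bowtie2 and Rnor_6.0. No source used here gives the strand setting, so reads of antisense partners cannot be told apart. The TPM columns and group averages, 10 in all, were not used. Between 28.5% and 28.9% of genes per library carry decimals (over 1e-06 from a whole number).

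All genes were fitted with edgeR 4.0.16 in R 4.3.3: filterByExpr (minimum count 10, minimum total 15), TMM factors, robust quasi-likelihood F test, Benjamini-Hochberg adjustment at 0.05. SE is the absolute log2 fold change over the square root of F. Alternatives were DESeq2 1.42.0, limma-voom (limma 3.58.1), RLE factors, library size alone, no filter, a stricter one (1 CPM in 2 libraries, total 50), a replicate block, each library left out, and summed paralogues. Scripts were tested on simulated data. Members and lists were chosen with earlier results of these data known. The rule for values per library covered members called with an absolute log2 fold change of at least 0.5, the 5 highest by FPKM and a preset list; other members' values were added after they were seen. From each partner list the 2 largest called changes are named, and others are marked as chosen later. Fancm was not matched. The values of 1 tested member are not reported here; it stays in the counts over all members.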

Additional observations from a re-analysis of the deposited data

How the results depend on the processing

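Of the 25 called members 19 kept their call under each of 11 alternative fits. The fit with paralogues summed, which has 1 row per family, is not among these 11. Another 6 lost the call under at least 1 of them (Ube2a, Ube2d1, Ube2f, Ube2g2, Ube2k and Ube2v1), and 0 changed sign. Of the 9 that did not pass, Ube2q1, Ube2q2l and Ube2z passed under at least 1. With library size alone both Ube2q1 and Ube2z passed, Ube2z at 0.11. DESeq2 called 15 members higher and 6 lower. Leaving out 1 library gave 13 to 17 higher and 6 to 8 lower, a members' median of 0.11 to 0.19, and 7360 to 7974 genes called in all. With the replicate block 16 rose and 8 fell, the median was 0.16 and 8229 genes were called. Over 10001 genes, deviations of vehicle replicate 1 correlated at 0.22 with those of carfilzomib replicate 1 and at -0.22 with those of carfilzomib replicate 2. With 2 libraries per group these values mirror each other by construction, so they cannot show pairing. With 2 pairs and no label on pairing, the number was not taken as a pair. The block changed the call of Ube2a and no other member. Signs turned for members that did not pass. Ube2j2 was at -0.0036 with the stricter filter and at -0.038 to 0.049 when 1 library was left out, lowest without carfilzomib replicate 1. Ube2w was at -8.0e-04 with the stricter filter and at -0.052 to 0.067, below 0 without carfilzomib replicate 1 and without vehicle replicate 1 (-0.0020). Ube2d4 was at -0.13 to 0.060, above 0 without carfilzomib replicate 2. Summing paralogues turned the sign against Ube2d1 and Ube2d4 (family at 0.22) and Ube2e1 (family at -0.12). The summed row also holds their relatives, of which Ube2d2, Ube2d3 and Ube2e3 had more counts. The stricter filter left Ube2d4 out. Ube2d4 had 13 to 15 counts per library and an SE of 0.39 on the log2 scale, so small changes of it could not be seen at this depth.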

Other observations

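The symbol rule leaves out rows that RefSeq now names as E2 copies. LOC679539, named Ube2v1l1 in RefSeq, has split reads and held 51, 127, 52 and 0 counts in vehicle replicates 1 and 2 and carfilzomib replicates 1 and 2, and did not pass (edgeR adjusted p 0.45). LOC691546, named Ube2r2l1, held 3 counts in carfilzomib replicate 1 and 0 in the other libraries. Ube3d, a ligase that binds Ube2c and was once named after it (Ube2cbp), had 3.45 and 3.90 CPM under vehicle and 2.62 and 2.54 CPM with carfilzomib. Its log2 change was -0.51 ± 0.20 (SE) (edgeR adjusted p 0.0432). These 3 rows were chosen after their values were seen.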
